A study of Drosophila melanogaster with 75 samples.

Results

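The storage protein gene Lsp2 and 8 further genes of lipoprotein assembly, lipid carriage and lipid storage (Fbp1, apolpp, Apoltp, Mtp, NLaz, GLaz, Lsd-2 and Npc2e) were followed in the heads of male Drosophila melanogaster. Each was represented by 1 probe set that the array annotation assigns to that gene alone, which gave 9 genes out of 11982 that have such a probe set and 9 of 18769 probe sets in all. Lsp2 and its companions were measured in 15 pools of 30 heads on Affymetrix Drosophila Genome 2.0 Arrays. Mated males had been given a virgin female and were collected 2 hrs after copulation ended (5 pools), courted males had been given a cauterized virgin female (5 pools), and control males had been given no female (5 pools). The labels give a treatment time of 2 hrs for courted and control males too, and the paper froze control males at the same time as mated males. The replicate number links mated and control pools that were collected together. Courted pools carry the same numbers, and the treatment protocol in the labels says that a male of each group was collected together. All males were virgin beforehand, came from 1 isogenized Canton-S line, were 5 days old and had been housed singly since the day before. A pool holds whole heads, so that brain, eyes, glia, head fat body, muscle and blood cells are averaged together, and a lower signal from fewer cells of a type cannot be told apart from less RNA per cell.

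Insect lipids travel in the blood as lipophorin, a lipoprotein whose protein scaffold is the precursor encoded by apolpp. The microsomal transfer protein Mtp loads the scaffold with lipid as it is made, the particle encoded by Apoltp helps it to take up further lipid, and receptors on the target tissues collect it. In the fat body, the fly's counterpart of liver and adipose tissue, neutral lipid is kept in droplets that carry perilipins such as Lsd-2. Lsp2 is a hexamerin, a protein that stores amino acids, and is best known as a serum protein of larvae. Fat body surrounds the brain in the adult head, so a head sample holds it together with the nervous system, and the lipocalins NLaz and GLaz take their names, Neural and Glial Lazarillo, from the nervous system.

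Levels below are the log2 of the GC-RMA intensity, a background-corrected summary of the perfect match probes in each probe set. They are compared only within a probe set, because the brightness of different probe sets depends on their probes. On this scale a difference of 1 is a doubling of intensity. Across the 15 arrays the median MAS5.0 intensity lay between 43.1 and 64.5, between 40.1% and 40.9% of probe sets exceeded an intensity of 100, and the correlation of any array with another lay between 0.961 and 0.995. Nothing in the labels says whether pools of a group came from separate cultures, so p-values measure only the spread between these pools.

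None of the tested genes among the 9 passed an adjusted p of 0.05 in any comparison. For mated against control males, limma called 0 of the 7621 probe sets tested (0%), and 731 (9.59%) were under an unadjusted p of 0.05, of which 446 (5.85%) were lower and 285 (3.74%) higher. In courted against control males the calls were again 0 of 7637 (0%), with 252 (3.3%) under the unadjusted threshold, 95 of them lower (1.24%) and 157 higher (2.06%). In mated against courted males they were 0 of 7636 (0%), with 257 (3.37%) under it, 174 lower (2.28%) and 83 higher (1.09%). With a variance trend limma called 9 probe sets for mated against control, and a Cyber-T style paired test called 12, none of them a member. Of the 9 genes, 7 had a mean intensity above 100 and were tested, and Fbp1 and Npc2e were too dim. Under the unadjusted threshold there was 1 member for mated against control (Lsp2, lower), 2 for courted against control (Lsp2 and Apoltp, both lower) and 1 for mated against courted (Apoltp, higher). The tested members had a median difference of -0.01 in mated against control, 0.00 in courted against control and -0.01 in mated against courted males, beside -0.01, 0.00 and -0.02 over all probe sets tested. In none of the 3 comparisons did the groups separate without overlap for a tested member, which happened for 1.43% of probe sets in mated against control, 0.524% in courted against control and 0.943% in mated against courted males.

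Lsp2 had the widest span of the tested members. The log2 level of Lsp2 was 12.34, 12.56, 12.68, 12.52 and 12.45 in mated male heads, replicates 1 to 5. In courted male heads the Lsp2 levels were 12.20, 12.32, 12.44, 12.32 and 12.74, and in control male heads they were 13.08, 13.02, 13.14, 12.92 and 12.42. Control replicates 1 to 4 were all above each of the 10 mated and courted pools, whereas control replicate 5 lay among them, so that neither group with a female was wholly separated from the controls. Courted replicate 5 was in turn the highest of the 10.

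**Figure D1:**
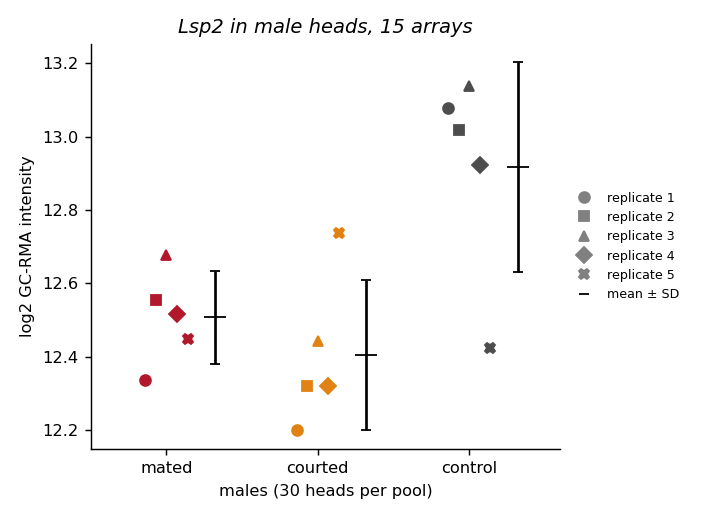
Log2 GC-RMA intensity of Lsp2 in each pool of 30 male heads, for mated, courted and control males. Each symbol is 1 array with its replicate number, and bars are the mean ± SD of 5 arrays. Control replicates 1 to 4 lie between 12.92 and 13.14, and control replicate 5 lies at 12.42.

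The mean level of Lsp2 was 12.51 ± 0.13 in mated male heads and 12.92 ± 0.29 in control male heads (SD, n = 5 each), a log2 difference of -0.41 (SE 0.10, 95% interval -0.64 to -0.18) or 1.33-fold lower. Lsp2 was lower in 4 of 5 mated pools than in the control pool of the same number. Its unadjusted p from limma was 0.0040 and its adjusted p 0.322, and 1.09% of the probe sets tested had a larger difference in either direction. The study's own list of mating-responsive genes includes Lsp2 and was drawn up from these same mated and control arrays, so its direction there is not independent evidence. In courted male heads Lsp2 averaged 12.40 ± 0.20, against 12.92 ± 0.29 in control male heads (SD, n = 5 each). The log2 difference was -0.51 (SE 0.17, 95% interval -0.92 to -0.10), or 1.43-fold lower, with Lsp2 lower in 4 of 5 pools than in the same-numbered control pool. The unadjusted p from limma was 0.022 and the adjusted p 0.988, and 0.576% of the probe sets tested had a larger difference. Both comparisons use the same 5 control arrays. Between the groups that met a female, mated minus courted was 0.10 for Lsp2 (SE 0.09, 95% interval -0.11 to 0.32, unadjusted p from limma 0.283, adjusted p 0.982).

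**Figure D2:**
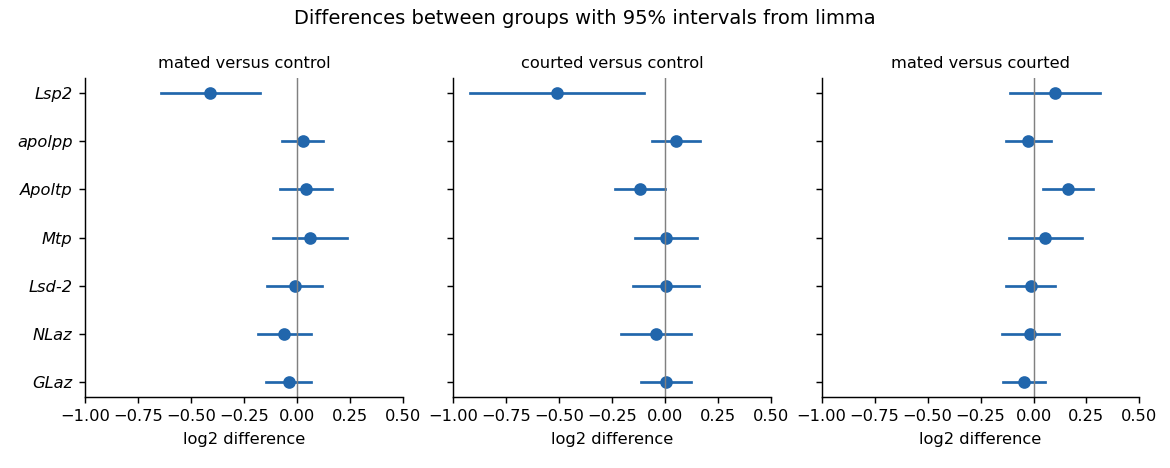
Log2 difference of each tested member for mated versus control, courted versus control and mated versus courted male heads, with 95% intervals from limma. Lsp2 lies at -0.41 and -0.51 against control, and Apoltp lies at 0.16 for mated versus courted.

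Replicate 5 carried much of the spread of Lsp2. The differences of same-numbered mated minus control pools were -0.74, -0.46, -0.46, -0.41 and 0.02 for Lsp2, and those of courted minus control pools were -0.88, -0.70, -0.69, -0.60 and 0.31. Without replicate 5 in either group, the difference of Lsp2 was -0.52 for mated against control (adjusted p from limma 0.188) and -0.72 for courted against control (adjusted p 0.681). The groups then did not overlap in either comparison. Replicate 5 was singled out after the Lsp2 values were seen, and control replicate 5 was the only control pool that overlapped. The separation of Lsp2 without it therefore followed from the choice and is no further evidence. The same omission left 4.78% of all probe sets tested without overlap between mated and control males, and 2.29% between courted and control males. Replicate 5 was not picked from the values of those probe sets, so these percentages are not a like background for Lsp2. For mated against courted, the difference of Lsp2 was 0.20 without replicate 5 (unadjusted p from limma 0.012, adjusted p 0.876), against 0.10 with it, and the groups still overlapped (2.74% of probe sets tested did not). No label sets control replicate 5 apart from the other control pools. Its gap to the nearest of them was 0.697 of the range of the control group in Lsp2. That was under the critical value of 0.71 of Dixon's outlier test, which 0 of 21 groups of tested members exceeded.

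The other algorithms gave Lsp2 the same direction with different sizes. For mated minus control, the difference in the Lsp2 means was -0.25 with dChip PM, -0.21 with dChip PM-MM, -0.39 with MAS5.0 and -0.40 with GeneSpring GC-RMA. For courted minus control it was -0.38, -0.33, -0.46 and -0.49 in the same order. The dChip PM-MM and dChip PM differences for mated against control, and the dChip PM-MM difference for courted against control, were smaller than those of GC-RMA by over 1.5 times. With dChip PM-MM, Lsp2 was no longer under an unadjusted p of 0.05 from limma in either comparison (0.068 for mated and 0.062 for courted against control males). With R/Bioconductor GC-RMA, the unadjusted p of Lsp2 from limma for courted against control depended on the replicates kept. It lay between 0.053 and 0.074 when any 1 of replicates 1 to 4 was left out, and was 8.9e-05 without replicate 5. In each of the 5 algorithms Lsp2 overlapped between both groups with a female and the controls, and in each it no longer did so once replicate 5 was left out, an alternative chosen after the data were seen.

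**Figure D3:**
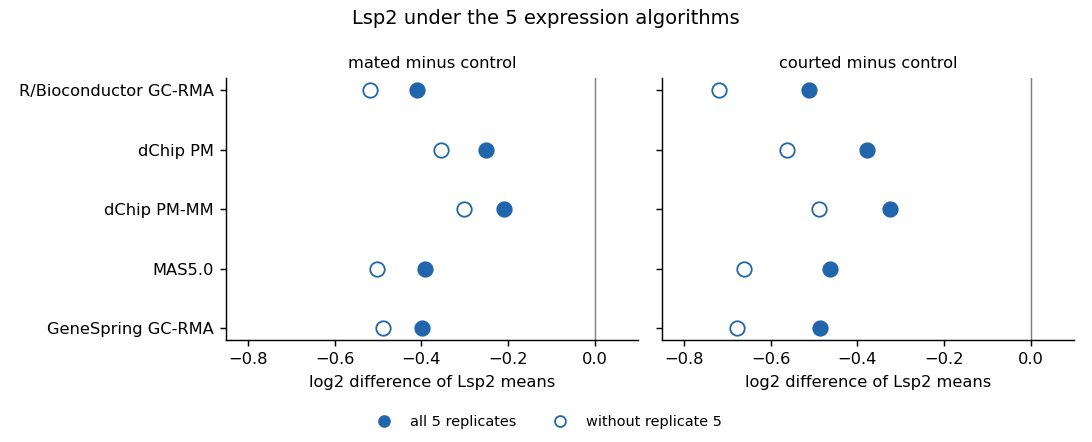
Difference of the mean log2 level of Lsp2 under the 5 algorithms, for mated minus control and courted minus control male heads. Filled circles use all 5 replicates and open circles leave out replicate 5. Every circle lies below 0, from -0.21 to -0.52 for mated minus control and from -0.33 to -0.72 for courted minus control.

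Fat body markers other than Lsp2 had differences of both signs. Of 8 fat body markers with a probe set of their own, 6 were above the threshold, namely apolpp, Apoltp, Lsp2, fit, tobi and AkhR, while Fbp1 and Npc2e were near background. Summed over the 8, their intensity ranged over 49737-55443 in mated, 48842-52126 in courted and 48697-53244 in control male heads. Summed over fit, tobi and AkhR alone, it ranged over 13277-17778 in mated, 12652-15006 in courted and 11590-14284 in control male heads. For mated against control, fit differed by 0.56 (unadjusted p from limma 0.00019), tobi by -0.52 (unadjusted p 0.0087) and AkhR by 0.12 (unadjusted p 0.096). Both fit and tobi are on the study's list of mating-responsive genes, drawn up from these same arrays. Sums that include them therefore cannot be read as fat body content alone. The paper reports more fit signal in head fat body after mating by in situ hybridization, while its qPCR did not verify fit. The 6 glial markers, all above the threshold, had sums of 25889-30790 in mated, 23894-28036 in courted and 23662-26819 in control male heads. The 6 haemocyte markers, 5 of them above the threshold, had sums of 6647-7750 in mated, 5994-7567 in courted and 6057-7698 in control male heads. Of the others, 3 of 3 photoreceptor markers, 4 of 5 muscle markers and 2 of 5 neuronal markers (nSyb and Rbp9, with elav at a mean intensity of 10.2) were above it. None of 7 genes of the male reproductive tract, which a head sample should lack, was above the threshold, and their sum stayed between 32.3 and 35.8. The part of any of these cell types in the Lsp2 values was not tested.

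Among the genes that build lipophorin, apolpp had the smallest spread between pools with GC-RMA and dChip, but the largest with MAS5.0. The log2 level of apolpp, the lipophorin scaffold, was 14.60, 14.62, 14.61, 14.68 and 14.63 in mated male heads, 14.67, 14.66, 14.63, 14.62 and 14.70 in courted male heads, and 14.63, 14.57, 14.56, 14.64 and 14.62 in control male heads. All 3 groups overlapped, and the highest array was 1.10-fold above the lowest, against 1.59-fold with MAS5.0. Mated minus control was 0.03 for apolpp (95% interval -0.07 to 0.12, adjusted p from limma 0.825), courted minus control was 0.05 (-0.06 to 0.16, adjusted p 0.988) and mated minus courted was -0.02 (-0.13 to 0.08, adjusted p 0.982). With MAS5.0, however, apolpp lay on the other side of 0 in both comparisons with control, at -0.10 for mated and -0.10 for courted males.

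Apoltp, which encodes the lipid transfer particle, was lowest in courted males. Its log2 level was 12.64, 12.62, 12.47, 12.74 and 12.60 in mated male heads. In courted male heads it was 12.41, 12.46, 12.38, 12.49 and 12.52, and in control male heads 12.43, 12.62, 12.49, 12.67 and 12.64. The courted values lay in a narrow band at the low end, and each was below the mated and the control pool of its own number, although the groups overlapped. Courted pools were matched by number because the labels describe males of the groups as collected together, but the array values showed little of that matching. In both comparisons with courted arrays, 0 of 5 arrays correlated best with the array of their own number. Apoltp averaged 12.61 ± 0.10 in mated and 12.45 ± 0.06 in courted male heads (SD, n = 5 each), a log2 difference of 0.16 (SE 0.05, 95% interval 0.05 to 0.28). It was higher in 5 of 5 mated pools than in the same-numbered courted pool, with an unadjusted p from limma of 0.014 and an adjusted p of 0.982. A single direction in all 5 number-matched differences was found for 5.98% of the probe sets tested in that comparison. Courted minus control was -0.12 for Apoltp (SE 0.05, unadjusted p from limma 0.049, adjusted p 0.988), lower in 5 of 5 pools, a single direction that 5.47% of probe sets showed. Without the replicate number in the fit, its unadjusted p was 0.076. These sizes shrank by over 1.5 times with dChip, where mated minus courted was 0.10 (PM) and 0.09 (PM-MM) and courted minus control was -0.06 (PM) and -0.05 (PM-MM). They did not shrink so with MAS5.0, where Apoltp averaged 12.09 in mated, 11.94 in courted and 12.06 in control male heads. Nor did they with GeneSpring GC-RMA, with means of 12.58, 12.42 and 12.54 in the same order. For mated against control, Apoltp differed by 0.04 with R/Bioconductor GC-RMA (95% interval -0.08 to 0.17, adjusted p from limma 0.771). The pools of replicate 1 differed by 0.21, and without them the value was 0.0015.

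Mtp, which transfers lipid onto the nascent scaffold, varied more between pools than between groups. Its log2 level was 11.16, 10.89, 10.83, 11.06 and 10.91 in mated male heads, 10.89, 10.78, 10.89, 10.95 and 11.07 in courted male heads, and 10.83, 10.70, 10.91, 11.14 and 10.97 in control male heads. The range of the mated pools enclosed 4 of the 5 courted values, and the highest control pool was close to the highest mated pool. Mated minus control was 0.06 for Mtp (95% interval -0.11 to 0.23, adjusted p from limma 0.773), courted minus control 0.00 (-0.14 to 0.15, adjusted p 0.997) and mated minus courted 0.06 (-0.12 to 0.23, adjusted p 0.982).

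Lsd-2, the droplet perilipin, had nearly equal means. The log2 level of Lsd-2 was 12.78, 12.91, 12.85, 12.86 and 12.88 in mated male heads, 12.88, 12.96, 12.76, 12.89 and 12.85 in courted male heads, and 12.73, 13.01, 12.74, 12.80 and 13.05 in control male heads. Control replicates 2 and 5 held the highest Lsd-2 levels and control replicate 1 the lowest, so the control values spanned all others. The SD was 0.05 in mated, 0.07 in courted and 0.15 in control male heads. Mated minus control was -0.01 for Lsd-2 (95% interval -0.14 to 0.12, adjusted p from limma 0.949), courted minus control 0.00 (-0.15 to 0.16, adjusted p 0.999) and mated minus courted -0.01 (-0.13 to 0.10, adjusted p 0.987).

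The lipocalins NLaz and GLaz, secreted carriers of small lipophilic molecules related to vertebrate apolipoprotein D, also overlapped between all groups. The log2 level of NLaz was 10.96, 11.02, 11.19, 10.93 and 10.94 in mated male heads, 11.03, 10.96, 11.14, 11.11 and 10.87 in courted male heads, and 11.15, 11.15, 11.25, 10.92 and 10.87 in control male heads. That of GLaz was 10.62, 10.68, 10.83, 10.69 and 10.62 in mated, 10.67, 10.75, 10.88, 10.69 and 10.69 in courted, and 10.73, 10.71, 10.80, 10.69 and 10.72 in control male heads. Replicate 3 was the highest of its group in all 3 groups for both genes. Mated minus control was -0.06 for NLaz (95% interval -0.18 to 0.06, adjusted p from limma 0.696) and -0.04 for GLaz (-0.15 to 0.07, adjusted p 0.761). Courted minus control was -0.04 for NLaz (-0.21 to 0.12) and 0.01 for GLaz (-0.11 to 0.12), and mated minus courted was -0.02 for NLaz (-0.15 to 0.12) and -0.05 for GLaz (-0.14 to 0.05), with adjusted p-values from 0.982 to 0.997.

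**Figure D4:**
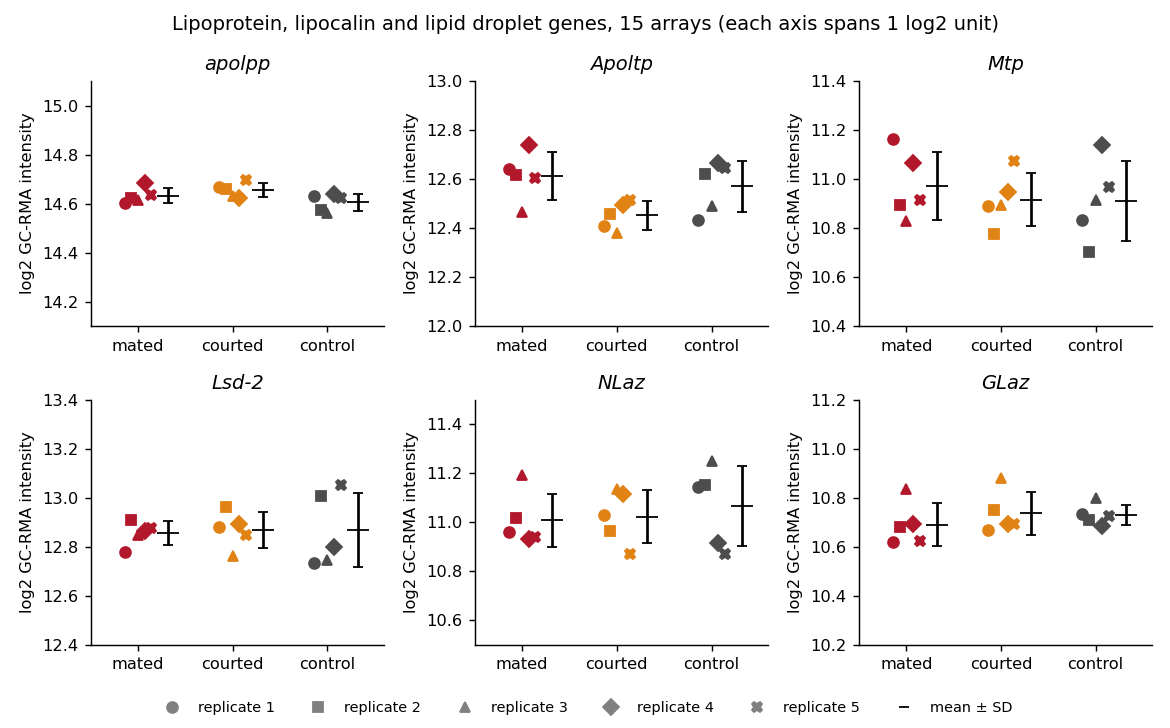
Log2 GC-RMA intensity of apolpp, Apoltp, Mtp, Lsd-2, NLaz and GLaz in each of the 15 pools, by group and replicate number, with the mean ± SD of 5 arrays. Each vertical axis spans 1 log2 unit. The courted values of Apoltp lie between 12.38 and 12.52, and the groups overlap for each of the 6 genes.

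Fbp1, which encodes the fat body receptor for larval serum proteins, and Npc2e, of the Niemann-Pick C2 family of sterol-binding proteins, were not above background in male heads. The mean GC-RMA intensity over 15 arrays was 4.66 for Fbp1 and 4.59 for Npc2e, where a probe set needed more than 100 to be tested, and the arrays differed from the lowest to the highest by only 1.02-fold for Fbp1 and 1.04-fold for Npc2e. With dChip PM, which subtracts no mismatch signal, both exceeded its threshold of 50, with means of 72.4 for Fbp1 and 56.4 for Npc2e. In that data set mated minus control was -0.11 for Fbp1 (SE 0.06, adjusted p from limma 0.551) and -0.06 for Npc2e (SE 0.07, adjusted p 0.791).

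The 7 tested genes differed in how much they varied among themselves. The pooled SD within groups was 0.22 for Lsp2 and lay between 0.03 for apolpp and 0.14 for Mtp in the other 6. From the lowest to the highest of the 15 arrays, Lsp2 covered a 1.92-fold range, against ranges between 1.10-fold (apolpp) and 1.38-fold (Mtp) for the other 6. The range of Lsp2 was the widest of the 7 in each of the 5 algorithms, whereas the place of apolpp depended on the algorithm. With MAS5.0, apolpp had a pooled SD of 0.19 and a 1.59-fold range, second to the 1.82-fold range of Lsp2, and Apoltp had the narrowest range, 1.21-fold. In the fit of mated against control, 89.7% of probe sets had a smaller residual SD than Lsp2, and 1.35% had a smaller one than apolpp, both with GC-RMA.

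The members did not vary as 1 block across pools. Over the 15 arrays, 8 of the 21 pairs of members had a positive correlation, and no pair passed a Benjamini-Hochberg adjusted p of 0.05 (100000 permutations, lowest adjusted p 0.135), while 5 were under 0.05 unadjusted. The permutations shuffled all 15 arrays freely, so their p-values take no account of group or replicate. The lowest Pearson r, -0.644 (permutation p = 0.0094), was between apolpp and NLaz, with a Spearman rho of -0.557 (permutation p = 0.034), and r was -0.413 without the 2 arrays farthest from the median of apolpp. For this pair r was -0.697 with group means subtracted and -0.486 with replicate means subtracted as well. The highest Pearson r, 0.605 (permutation p = 0.016), was between NLaz and GLaz, with a Spearman rho of 0.482 (permutation p = 0.073). That r was 0.424 without the 2 farthest arrays and -0.177 once group and replicate means had been subtracted. Lsp2 had an r of -0.433 with apolpp and of 0.433 with NLaz, with adjusted p-values of 0.271 each. With group means subtracted, the r of Lsp2 with apolpp was -0.0284, and with replicate means subtracted as well it was 0.292. The r of Lsp2 with NLaz was 0.105 without the 2 arrays farthest from the median of Lsp2.

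The named genes whose levels followed each member most closely over the 15 arrays are given here as a description. For Lsp2 they were CstF50 (Pearson r 0.802), Smn (0.788), Prosbeta7 (0.785), Clp (0.768) and CG3587 (0.737). Once group means had been subtracted, these r values for Lsp2 were 0.619, 0.572, 0.612, 0.553 and 0.796. The closest pair of genes was grnd (0.847) and CG14419 (0.839) for apolpp, nec (0.760) and fon (0.756) for Apoltp, and PGRP-LF (0.904) and CG8399 (0.885) for Mtp. For NLaz they were PSMG1 (0.921) and AIMP3 (0.868), for GLaz CG12926 (0.893) and CG15201 (0.873), and for Lsd-2 crb (0.902) and CG7139 (0.878). Each r was picked from 7631 probe sets, and all come from the same 15 arrays.

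Other genes of lipid carriage and storage were read from lists chosen beside the members, and none was called in any comparison. The lists were chosen with earlier results of these data known, so their counts are descriptive. Over all probe sets tested, 3.74% were higher and 5.85% lower for mated against control under an unadjusted p of 0.05 from limma. The shares were 2.06% and 1.24% for courted against control, and 1.09% and 2.28% for mated against courted. Of 26 genes of lipid droplets and neutral lipid, 18 were tested, and for mated against control 0 were higher and 3 lower under an unadjusted p of 0.05, with a median of -0.00. They were CG8112, related to sterol acyltransferases, bmm, the droplet lipase brummer, and Lpin, a phosphatidate phosphatase. CG8112 averaged 9.63 ± 0.25 in mated and 10.26 ± 0.25 in control male heads (SD, n = 5 each), a log2 difference of -0.63 (SE 0.11, adjusted p from limma 0.196). The study's own list of mating-responsive genes, drawn up from these same mated and control arrays, includes CG8112. In the study, qPCR on independently collected heads did not verify the lower level of CG8112. The mean of bmm was 11.22 ± 0.14 in mated and 11.51 ± 0.20 in control male heads, a difference of -0.29 (SE 0.06, adjusted p 0.232). For Lpin the difference was -0.15 (SE 0.05, adjusted p 0.495). Each of the 3 was lower in 5 of 5 pairs, which was so in either direction for 10.2% of all probe sets tested. The CG8112 difference was -0.42 with MAS5.0, while those of bmm and Lpin stayed within 1.5 times of their value under the alternatives tried. For mated against courted, 0 were higher and 3 lower under the unadjusted threshold. CG8112 differed by -0.42 (adjusted p from limma 0.982), bmm by -0.20 (adjusted p 0.982) and mdy by -0.14 (adjusted p 0.982). For courted against control, 2 were higher and 0 lower under the unadjusted threshold. These were AkhR, with a difference of 0.13 (SE 0.05, adjusted p from limma 0.988), and Lsd-1, the other perilipin, with 0.26 (SE 0.11, adjusted p 0.988). In mated males Lsd-1 differed from control by 0.17 (SE 0.08, adjusted p 0.522), by 0.10 with MAS5.0 and by 0.096 without replicate 2.

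Of 16 lipoprotein receptors and lipid carriers, 10 were tested, and for mated against control 2 were higher and 1 lower under an unadjusted p of 0.05, with a median of 0.03. Over all probe sets tested, 3.74% were higher and 5.85% lower under that threshold. LpR2, a lipophorin receptor of the LDL receptor family, differed by 0.27 on the log2 scale (SE 0.07, 95% interval 0.11 to 0.44, adjusted p from limma 0.374) and was higher in 5 of 5 pairs. The value for crq, a CD36-family receptor of macrophages, was 0.22 (SE 0.09, adjusted p 0.497, 4 of 5 pairs), but 0.07 with MAS5.0. The value for ninaD, a scavenger receptor needed for carotenoid uptake, was -0.22 (SE 0.04, adjusted p 0.235), lower in 5 of 5 pairs, and it was -0.14 with dChip PM and -0.12 with dChip PM-MM. For emp, another CD36-family member, the value was 0.06 (SE 0.04, adjusted p 0.654) and 0.10 with MAS5.0. In mated against courted male heads, ninaD differed by -0.26 (SE 0.05, adjusted p from limma 0.872), LpR2 by 0.12 and crq by 0.12 (adjusted p 0.982 for each). There ninaD was -0.15 with dChip PM and -0.15 with dChip PM-MM, LpR2 was 0.075 with MAS5.0, and crq was 0.027 with dChip PM, 0.054 with dChip PM-MM and 0.015 with MAS5.0.

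Of 9 further genes of Niemann-Pick C sterol transport, 5 were tested and 0 were under an unadjusted p of 0.05 in any comparison. For mated against control the differences were -0.07 for Npc2a, -0.04 for Npc2h and -0.02 for Npc2b, which belong to the same family as Npc2e, and 0.03 for Npc1a, the membrane partner of that family. The value of Npc2a was -0.026 with dChip PM, -0.025 with dChip PM-MM and -0.027 with MAS5.0, while that of Npc1a was 0.071, 0.077 and 0.051 in the same order and 0.0024 without replicate 4. Of 7 storage and yolk protein genes, 4 had a probe set of their own and 1 was tested, Yp3, a yolk protein, with a mated minus control difference of -0.08 (SE 0.06, adjusted p from limma 0.648), which was -0.055 with either dChip version, -0.020 with MAS5.0, -0.039 without replicate 3 and -0.13 without replicate 2. Fbp2, Yp1 and Yp2 had mean GC-RMA intensities of 4.93, 6.16 and 4.63, far under the threshold.

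**Figure D5:**
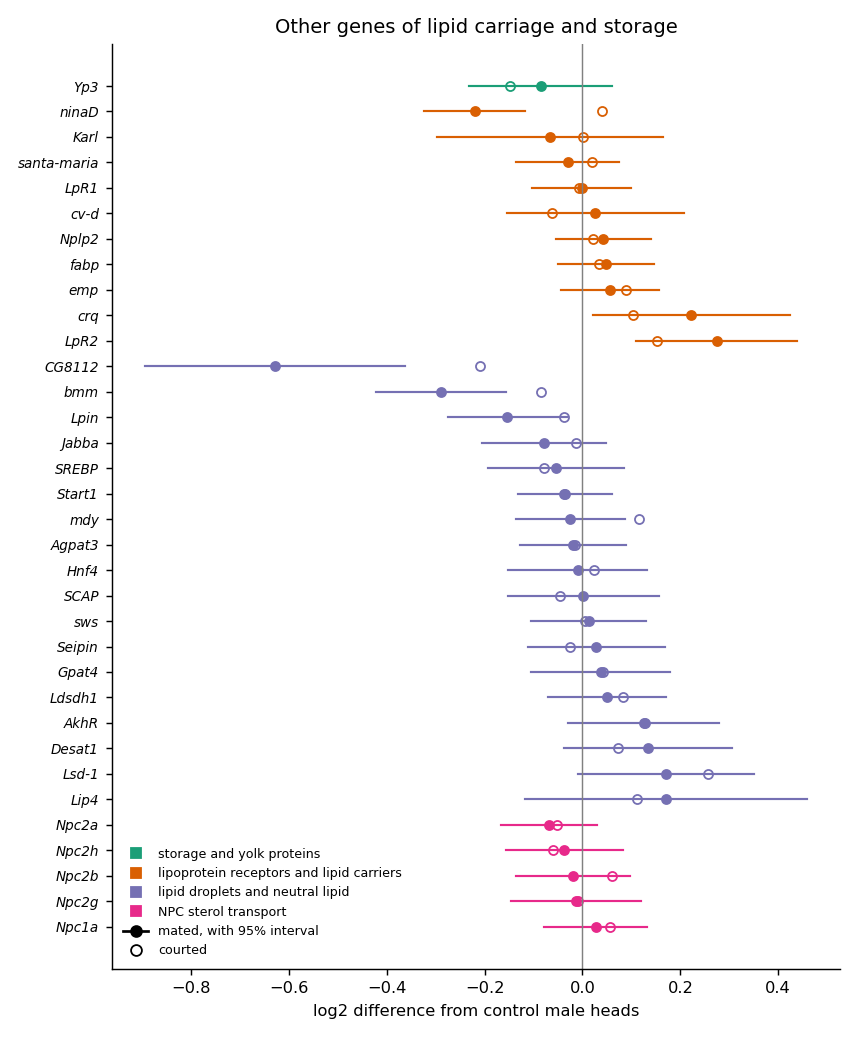
Log2 difference from control male heads for the tested genes of the 4 lists, with filled circles for mated males (bars are 95% intervals from limma) and open circles for courted males. CG8112 lies lowest at -0.63 and LpR2 highest at 0.27 for mated males.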

How the data were processed

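The authors hybridized head RNA of 15 pools to 15 arrays and deposited linear intensity values per probe set from 5 algorithms, namely GC-RMA by R/Bioconductor, GC-RMA by GeneSpring, MAS5.0 by GCOS 1.2, and dChip with (PM-MM) or without (PM) mismatch subtraction. The resulting 75 columns were counted as 15 arrays. GC-RMA borrows its background from probe sequence and flattens dim probe sets. GeneSpring values stood 1 place low after an empty entry at place 3092 and were moved up, after which their correlation with R/Bioconductor GC-RMA across probe sets was 0.988, against 0.0124 before. For the other programs, the version is not given in the sources used here.

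Of 18952 probe sets, 183 controls were left out. R/Bioconductor GC-RMA values had a floor of 1 and were put on the log2 scale. Probe sets with a mean above 100 over the compared arrays (50 for dChip) were tested with limma 3.58.1 in R 4.3.3 (lmFit, eBayes), blocked by replicate number, and p-values were adjusted by Benjamini-Hochberg over every probe set in the test. The methods collected mated and control samples as pairs, and deviations of same-numbered arrays correlated at 0.0887 to 0.479. The lowest, 0.0887, was that of replicate 5, against 0.331 to 0.479 for replicates 1 to 4. Of the mated arrays, 4 of 5 correlated best with the control array of their own number, and replicate 5 did not. Member genes and lists were chosen with earlier results of these data known. All 9 members were named, with, from each list, up to 4 genes of lowest p in mated against control males, any gene called, and the 5 closest genes in level for Lsp2 or 2 for another member. Fits were tested on simulated data. Figures (matplotlib 3.10.9) and correlations (scipy 1.17.1, numpy 2.4.6, pandas 2.3.3) were made in Python 3.11.15. Alternatives were the other algorithms, quantile normalization, no filter, a floor of 16, no block, all 15 arrays in 1 fit, a variance trend, the Cyber-T style test (window 101, confidence 10) and each replicate left out. No sequences or coordinates were used.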

Additional observations from a re-analysis of the deposited data

How the results depend on the processing

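No member was called under any of the 16 alternatives in any of the 3 comparisons. Over all probe sets, the count of calls for mated against control was 0, and it became 1 without the replicate block, 3 with all 15 arrays in 1 fit, 9 with a variance trend, 12 with the Cyber-T style test, and 0 to 1 when a replicate was left out (1 without replicate 4). For mated against courted it was 0, and it became 3 without the block, 4 with all 15 arrays, and 0 to 1 when a replicate was left out (1 without replicate 4). The courted arrays carry the same replicate numbers, but deviations of same-numbered arrays correlated at -0.307 to 0.325 with control and at -0.451 to 0.164 with mated arrays, and 0 of 5 correlated best with their own number in either case. Without the replicate block, the unadjusted p of Lsp2 from limma was 0.0070 for mated against control and 0.0042 for courted against control, with adjusted p-values of 0.553 and 0.999, and that of Apoltp was 0.076 in courted against control males and 0.015 in mated against courted males.

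Lsp2 kept its direction in all 3 comparisons under the alternatives tried. When a replicate was left out it ranged from -0.52 to -0.33 for mated against control, from -0.72 to -0.42 for courted against control and up to 0.20 (without replicate 5) in mated against courted males. Small differences of other members turned round. For mated against control, NLaz was 0.0023 with dChip PM and 0.018 with dChip PM-MM, GLaz was 0.0012 with dChip PM-MM and 0.0082 with MAS5.0, and Lsd-2 was 0.011 with dChip PM, 0.010 with dChip PM-MM and 0.0045 with MAS5.0. In that comparison apolpp was -0.099 with MAS5.0, Npc2h was 0.0036 with dChip PM-MM and 0.034 with MAS5.0, and Npc2b was 0.033 with MAS5.0. For courted against control, Mtp was -0.032 with dChip PM, -0.045 with dChip PM-MM and -0.0010 with GeneSpring GC-RMA, apolpp was -0.105 with MAS5.0, and Lsd-2 was -0.0035 with GeneSpring GC-RMA and -0.0016 with quantile normalization. For mated against courted, NLaz was 0.0069 with dChip PM and 0.028 with dChip PM-MM, Lsd-2 was 0.0041 with dChip PM, and apolpp was 0.0063 with MAS5.0. With a replicate left out, mated against control ran from -0.0061 to 0.098 for Mtp, from -0.040 to 0.029 for Lsd-2, from -0.051 to 0.0062 for Npc2h and from -0.044 to 0.016 for Npc2b. Courted against control ran from -0.020 to 0.054 for Mtp, from -0.034 to 0.053 for Lsd-2 and from -0.014 to 0.023 for GLaz, and mated against courted ran from -0.039 to 0.0084 for Lsd-2 and from -0.037 to 0.026 for NLaz. The cause was not tested. The number of arrays limits the precision, and Fbp1 and Npc2e were too dim for a GC-RMA value to carry information.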
